A study of Homo sapiens with 2 samples.

Results

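The pro-survival BCL2 family was examined in R-HL60, a cytarabine-resistant leukaemia line, and in HL60, the parental line it was derived from. Its 6 members, BCL2, BCL2L1, BCL2L2, MCL1, BCL2A1 and BCL2L10, were taken by gene name from the 43270 genes and transcripts of the deposited arrays, and every probe carrying one of these names was used. They were covered by 8 of 58201 probes, with a pair of probes each for BCL2 and BCL2A1 and 1 probe for each of the other 4 members. HL60 is an established acute myeloid leukaemia line of promyelocytic character. R-HL60 came from HL60 kept under rising doses of cytarabine, a deoxycytidine analogue that blocks DNA synthesis, and its label gives cytarabine as the treatment, whereas HL60 was untreated. Both were grown in RPMI medium with fetal bovine serum. Each line gave 1 Agilent one-colour array, so nothing was replicated or tested, and the line and its array cannot be told apart.

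Proteins of this family hold cells alive by binding, in a surface groove, the BH3 segment of pro-apoptotic relatives, which keeps the effectors BAX and BAK1 from piercing the outer mitochondrial membrane. BH3-only proteins such as BIM (gene BCL2L11), PUMA (BBC3) and NOXA (PMAIP1) occupy that groove under stress and so lower the threshold for cytochrome c release. In myeloid leukaemia the family is known as a drug target: venetoclax occupies the groove of BCL2, and MCL1 and BCL2A1 are known means by which leukaemic cells survive without BCL2.

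A signal was counted as measured when it lay above the array's median signal, used here as the floor, which was 32.8 on the R-HL60 array and 30.7 on the HL60 array. Differences are log2 values, R-HL60 minus HL60, after each array was divided by its 75th percentile, 294 for R-HL60 and 292 for HL60. Of all genes, 21838 were above the floor on both arrays and 1693 on 1 array. Over the genes above it on both arrays the median difference was -0.03, with an SD of 0.29 between genes. All 8 promyelocytic markers examined, among them MPO (285746 in R-HL60 and 309491 in HL60), were above the floor on both arrays. They were not all equal between the lines: ELANE, neutrophil elastase, read 153 in R-HL60 and 700 in HL60 (4.59-fold lower), PRTN3, proteinase 3, was at -0.80, and the other 6 were within 1.5-fold. CDKN2A, entered as deleted or low in HL60, was bright at 7146 in R-HL60 and 7257 in HL60. Of 13 markers of lymphoid, erythroid, epithelial and fibroblast cells 10 were above the floor on at least 1 array, with CD3D at 0.65 the largest difference, EPCAM, COL1A1 and COL1A2 below the floor on both, and their part in the results was not tested.

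The pro-survival transcripts differed little between the resistant line and its parent. BCL2 was slightly higher in R-HL60 on both of its probes, BCL2A1 was higher on 1 probe and nearly equal on the other, and BCL2L1, BCL2L2 and MCL1 differed by less than 1.1-fold. None of the 5 members above the floor was past 2-fold in either direction, where 1.08% of the 23531 genes above the floor on at least 1 array were (0.786% upward and 0.297% downward). None was past 1.5-fold by its brightest probe, a threshold that 4.91% of those genes passed (3.53% upward and 1.38% downward). The median difference of the 5 members was 0.07. In bulk RNA, fewer cells carrying a transcript and less of it per cell cannot be told apart. Signals of 4 of them were higher in R-HL60 and that of 1 was lower, against 42.8% higher and 57.2% lower among all genes above the floor on both arrays.

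BCL2, the founding member and the protein that venetoclax binds, had a signal of 5987 in R-HL60 and 5169 in HL60 on its brighter probe. On its dimmer probe the signal was 3135 in R-HL60 and 2733 in HL60. Both probes were higher in R-HL60, and by almost the same amount, with differences of 0.20 and 0.19. These are 1.15-fold and 1.14-fold. Different probes of a gene of this brightness scattered around their own mean with an SD of 0.11 for the brighter probe and 0.14 for the dimmer one. All probes of a gene read the same RNA on the same arrays. Such an SD, here and below, therefore holds no variation from culture to culture or from array to array. It cannot show whether a difference exceeds what repeat cultures of the same line would give, even where the probes agree. Of the 1240 genes as bright as the brighter probe, 20.4% differed at least as much in either direction and 4.19% were at least as far in the upward direction. That brightness class had a median of -0.07, so a gene at 0.20 stood above the middle of its class by more than its value against 0.

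BCL2A1, also called BFL1, is a short-lived pro-survival protein whose gene is a known target of NF-kB in blood cells. Its brighter probe read 6969 in R-HL60 and 6580 in HL60, a difference of 0.07. Its dimmer probe read 1147 in R-HL60 and 662 in HL60, a difference of 0.78 or 1.72-fold. The probes therefore agreed on the direction but not on the size. The dimmer probe was the only 1 of the 7 measured probes of the family past 1.5-fold upward, where 2.94% of the 28003 probes above the floor on both arrays were. Among the 1040 genes whose brightest probe was as bright as that probe, 0.769% were at least as far in the upward direction. This sets a dimmer probe, singled out for its value, against the brightest probes of other genes. The share therefore does not measure how unusual the dimmer probe is. The files carry no probe identifiers, so which BCL2A1 transcript each probe reads is not known here.

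The gap between the BCL2A1 probes was 0.71 on the log2 scale and that between the BCL2 probes was 0.01. Over 3667 genes with exactly 2 measured probes the median gap was 0.12, and 2.24% of them had a gap at least as wide as that of BCL2A1. Among 299 genes with several measured probes and a like mean level over them, 2 genes, or 0.669%, had a gap at least as wide. BCL2A1 itself was 1 of them. Its own probes lay in a brighter and a dimmer class than that mean level. The distribution of gaps over probe pairs is plotted with both genes marked. BCL2A1 lay in its tail and BCL2 at its lower end.

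**Figure D1:**
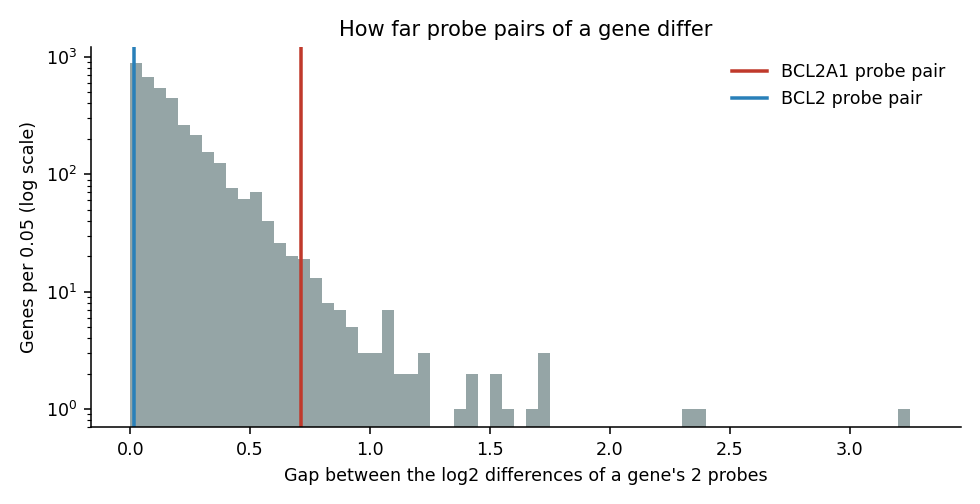
Histogram of the gap between the log2 differences (R-HL60 minus HL60) of a gene's 2 probes, for 3667 genes with 2 probes above the floor on both arrays; the vertical axis counts genes on a log scale. The BCL2A1 pair stands at 0.71, where the median gene has 0.12, and the BCL2 pair at 0.01.

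MCL1, another short-lived pro-survival protein, was the only member with a lower signal in R-HL60. It read 1866 in R-HL60 and 2022 in HL60, a difference of -0.12 with a probe-to-probe SD of 0.12 at that brightness. Of 1136 genes as bright, 46.3% differed at least as much. The median of that brightness class was -0.06, and 66.3% of its genes had a difference at or above that of MCL1. BCL2L2, which encodes BCL-w, read 4606 in R-HL60 and 4358 in HL60, a difference of 0.07, and 64.7% of its 1211 like-bright genes differed at least as much. BCL2L1, which encodes BCL-xL and by splicing the shorter pro-apoptotic BCL-xS, read 223 in R-HL60 and 219 in HL60, a difference of 0.02. Of 1015 genes as bright as BCL2L1, 91.6% differed at least as much, and the probe-to-probe SD there was 0.20. With 1 probe each, these values cannot separate splice forms of MCL1 and BCL2L1, nor BCL2L2 from its readthrough transcript with the next gene, BCL2L2-PABPN1.

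BCL2L10, which encodes BCL-B, was below the floor on both arrays, at 24.0 in R-HL60 and 20.8 in HL60. No fold is given for it. A signal at this level does not show that the transcript is absent.

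**Figure D2:**
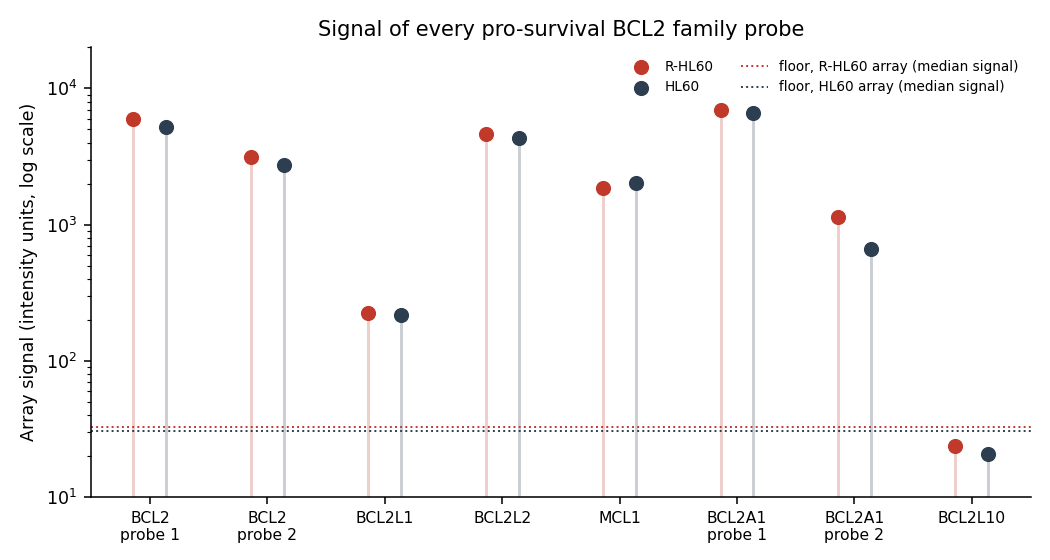
Signal of each of the 8 probes (intensity units, log scale) on the R-HL60 array (red, left point of each pair) and the HL60 array (dark, right point); dotted lines are the floors, 32.8 and 30.7. The points of a pair nearly coincide except for BCL2A1 probe 2, at 1147 in R-HL60 and 662 in HL60, and BCL2L10 lies below both floors.

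Ranked by the brightest probe, the members ran BCL2A1, BCL2, BCL2L2, MCL1, BCL2L1 and BCL2L10 in R-HL60, and in the same order in HL60. On the scale of log2 signal over the array's 75th percentile, R-HL60 had levels of 4.57 for BCL2A1, 4.35 for BCL2, 3.97 for BCL2L2, 2.67 for MCL1 and -0.40 for BCL2L1, with BCL2L10 below the floor. HL60 had levels of 4.49 for BCL2A1, 4.15 for BCL2, 3.90 for BCL2L2, 2.79 for MCL1 and -0.42 for BCL2L1, again with BCL2L10 below the floor. Signals of different probes also depend on how well each probe binds. Probes of 1 gene differed in level with an SD of 2.15 on the log2 scale, or 4.44-fold, over 4723 genes. The gaps between BCL2A1, BCL2, BCL2L2 and MCL1 were all smaller than that, so their order is not separated. The gap from MCL1 to BCL2L1 (3.06 in R-HL60 and 3.21 in HL60) was wider than 1 such SD. That SD is the scatter of single probes, and a gap between 2 probes scatters more. The gap therefore does not settle the order of MCL1 and BCL2L1 either. BCL2L10 was below the floor, so its place at the end has no measured distance from BCL2L1. With all probes of a gene averaged, BCL2L2 came first and BCL2A1 the third in both lines. The brighter BCL2A1 probe exceeded 94.2% of all probes on the R-HL60 array and 93.8% on the HL60 array, and BCL2L1 exceeded 72.8% and 72.7% of them.

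In the deposited table of intensities normalized by the authors, every measured member had the same sign, with upward differences slightly larger for BCL2, BCL2L2 and BCL2A1. There BCL2 read 6096 in R-HL60 and 5082 in HL60 on its brighter probe, a log2 difference of 0.26, and MCL1 read 1890 in R-HL60 and 1990 in HL60, a difference of -0.07. BCL2A1 read 7115 in R-HL60 and 6437 in HL60 (0.14) on its brighter probe, and 1154 in R-HL60 and 658 in HL60 (0.81) on its dimmer one. How that table was normalized is not stated in the labels or files. By the brightest probe, its differences for the measured members equalled those after quantile normalization of the intensities.

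**Figure D3:**
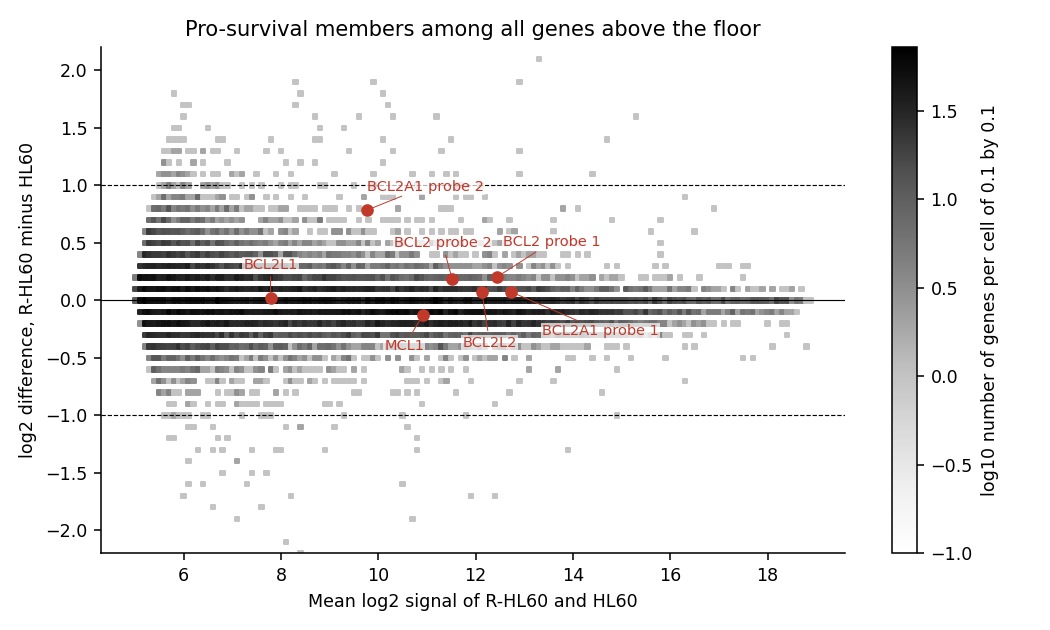
Each grey cell holds genes above the floor on both arrays, by mean log2 signal (horizontal) and log2 difference R-HL60 minus HL60 (vertical), darker with more genes; red points are the 7 measured probes of the family and dashed lines mark 2-fold. The vertical axis ends at 2.2, beyond which 27 genes lie. All 7 red points sit inside the dashed lines, and BCL2A1 probe 2, at 0.78, is the nearest to one.

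Promoter windows of RefSeq for assembly GRCh38.p14 were found for 3 of the members, BCL2A1, BCL2 and BCL2L1. Those of BCL2A1 and BCL2 are printed because these are the members with the widest differences on some probe. Each runs 5′ to 3′ on the gene's own strand, from 250 bases before the annotated start to 50 after it. BCL2A1 is at chr15:79971147-79971446 on the minus strand and BCL2 at chr18:63319720-63320019 on the minus strand. In BCL2A1 the capitals mark matches, on either strand, to 6 motifs chosen after the windows had been seen: the TATA box TATAAA, the ETS family core AGGAAGT, the M-box TCATGTG bound by MITF, the start of an NF-kB site GGGANTT, the AP-1 site TGANTCA and the SP1 box GGGCGG. BCL2 held none of the 6, and there the capitals mark CG pairs, the sites of DNA methylation.
BCL2A1: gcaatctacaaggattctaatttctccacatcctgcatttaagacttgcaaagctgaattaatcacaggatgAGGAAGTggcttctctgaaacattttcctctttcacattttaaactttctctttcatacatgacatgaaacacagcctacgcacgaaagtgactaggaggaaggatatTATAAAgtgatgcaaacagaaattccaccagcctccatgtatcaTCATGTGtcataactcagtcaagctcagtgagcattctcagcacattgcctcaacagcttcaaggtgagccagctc
BCL2: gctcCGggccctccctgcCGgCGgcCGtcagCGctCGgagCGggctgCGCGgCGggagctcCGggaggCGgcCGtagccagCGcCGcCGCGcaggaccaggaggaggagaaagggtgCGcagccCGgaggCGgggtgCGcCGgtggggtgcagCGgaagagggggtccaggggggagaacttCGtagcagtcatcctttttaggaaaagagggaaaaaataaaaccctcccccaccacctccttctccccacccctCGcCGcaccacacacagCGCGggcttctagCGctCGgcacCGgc

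The windows of these genes are unlike in make-up. The BCL2A1 window had 41.0% G and C and 2 CG pairs, and 11.0% of the 35116 promoter windows had fewer CG pairs. The BCL2 window had 70.7% G and C and 31 CG pairs, and 79.3% of windows had fewer. BCL2A1 held AGGAAGT from base 73 of the window, TATAAA from base 181 and TCATGTG from base 225, none overlapping another. These motifs occur in 8.24%, 11.5% and 2.92% of all windows. They were chosen after the windows had been seen, so the shares do not show that the matches are unusual. Neither window held GGGANTT (15.9% of windows), TGANTCA (7.71%) or GGGCGG (45.0%), which says only that these letters are not in these stretches.

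Factors known to act on these genes were measured beside them. Of 14 listed, 2 exceeded 2-fold upward in R-HL60 and 1 exceeded it downward, where 0.786% and 0.297% of all genes did. The list was drawn up with earlier results of these data known, so these counts cannot be read against those shares. The median over the 13 above the floor on both arrays was 0.09. The NF-kB subunit genes NFKB2 (505 in R-HL60 and 71.4 in HL60, difference 2.81) and RELB (20352 in R-HL60 and 4885 in HL60, difference 2.05) were the higher ones. NFKB1, at 0.48, and REL, at 0.36, were within 1.5-fold, and RELA was at -0.08. MITF, which drives BCL2A1 and BCL2 in melanocytes, read 18.0 in R-HL60, below the floor, and 211 in HL60, at least 6.46-fold lower in the resistant line. With an offset of 50 units added to every signal, NFKB2 was 4.55-fold higher and MITF at least 3.16-fold lower, and with all probes averaged the bound for MITF was 2.09-fold. STAT5B, a cytokine-activated factor known to act on BCL2L1, was at -0.40, STAT3 at -0.06 on its brighter probe and 0.32 on the other, and PU.1 (SPI1) at 0.08. ETS1, at 0.69, was close to the floor (66.8 in R-HL60 and 41.2 in HL60), and MYC was at -0.42. Protein level and binding of these factors were not measured.

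The partners that the family binds did not all stay as close to equal. Among the pore-forming effectors BAX was at -0.03 (6198 in R-HL60 and 6286 in HL60), BAK1 at -0.10 (4071 in R-HL60 and 4333 in HL60) and BOK at -0.06, so none of 3 was past 1.5-fold. Of 8 BH3-only genes, all above the floor on at least 1 array, 2 passed 2-fold upward and none downward, where 0.786% and 0.297% of all genes did, with a median of 0.18 over the 7 above it on both. The count was 3 with any of the 4 other scalings, among which the authors' table repeats quantile normalization. It was 1 with that offset, the floor at the 60th percentile or the mean of all probes. As this list was drawn up with earlier results of these data known, its count cannot be read against those shares. BBC3 read 4653 in R-HL60 and 2213 in HL60 (1.06) and BMF 77.8 in R-HL60 and 34.7 in HL60 (1.16), close to the floor and at 0.59 with the offset. PMAIP1, whose protein NOXA binds MCL1 and BCL2A1, read 4478 in R-HL60 and 2240 in HL60, a difference of 0.99, just under 2-fold, and of 1.02 to 1.06 with the 4 other scalings. BCL2L11, whose protein BIM binds every pro-survival member, was at 0.07, 0.12 and 0.28 on its 3 probes. BID was at 0.06, BAD at 0.11 and BIK at 0.18, and HRK, measured in HL60 only, had a bound of -0.38.

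Other genes around the family stayed within 1.5-fold. Of 9 genes that set the turnover of the MCL1 protein, 8 were above the floor on both arrays and all 8 had a difference below 0, as did 57.2% of all genes, with a median of -0.12; 6 of the 8 did under quantile normalization, loess and in the authors' table. MARCHF5, a mitochondrial ubiquitin ligase, was the lowest at -0.44 (127 in R-HL60 and 172 in HL60). The ligases BTRC and FBXW7 were at -0.21 and -0.15, and the deubiquitinase USP9X, which spares MCL1, was at -0.19. HUWE1, the MCL1 ligase MULE, was at -0.01 on its brighter probe and -0.28 on the other. Further relatives and binding partners had a median of 0.05 over 11 of 14 listed genes, from -0.08 to 0.08. Genes downstream at the mitochondrion, such as CYCS for cytochrome c (-0.09), had a median of -0.07 over all 13, and partners of BCL2 at the endoplasmic reticulum, such as the calcium channel ITPR1 (0.01), had a median of -0.05 over 7 of 8, a sign that turned in some settings. Of 8 listed precursor or host transcripts of microRNAs known to target members, only SMC4, host of a miR-15 and miR-16 cluster, was matched to a row, at -0.03 on its brighter probe.

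**Figure D4:**
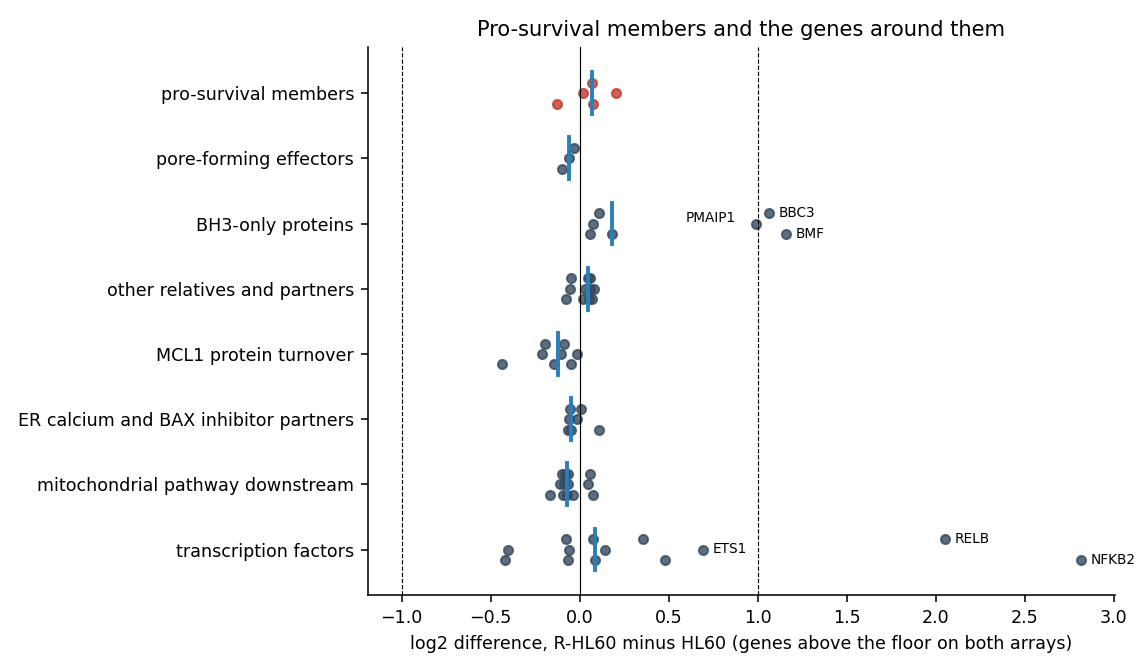
log2 difference, R-HL60 minus HL60, of each gene above the floor on both arrays by its brightest probe (points), by role, with the median of each list (blue bar); dashed lines mark 2-fold and genes past 1.5-fold are named. The pro-survival members (red) lie between -0.12 and 0.20, while BBC3, BMF and PMAIP1 lie near 1 and RELB and NFKB2 above 2.

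Each member was also set among the 10 measured genes on either side of it in the gene order of the same assembly. Around BCL2 on chromosome 18, 15 of 20 neighbours had a higher signal in R-HL60 (14 under quantile normalization and in the authors' table), and their median was 0.20, as was BCL2's own difference. The values were apart in some other settings: 0.17 for the neighbours and 0.26 for BCL2 under quantile normalization and in the authors' table, 0.19 and 0.27 with loess, and 0.11 and 0.20 with the offset. With no floor the neighbours were at 0.27 and BCL2 at 0.20. The neighbours' median was 0.15 with 5 neighbours on each side and 0.19 with 20. Shifting the differences to a median of 0 put both at 0.23, but it moves every gene by the same amount and cannot part them. With the floor at the 40th percentile both were at 0.20, a setting in which BCL2's own value cannot change. The median over 187 measured genes of that chromosome was 0.03. Medians around the other members lay between -0.02 and 0.00. Among the 10 neighbours of BCL2 above the 75th percentile on both arrays, a setting chosen after seeing the data, 9 were higher in R-HL60 with a median of 0.21, whereas 34.3% of 11559 genes as bright were higher and their median was -0.05. VPS4B (0.26), TMX3 (0.21), SERPINB8 (0.21) and RTTN (0.30) are examples, and ZCCHC2, at -0.15, was the bright exception.

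The BH3-only gene PMAIP1 is one of these neighbours, 6 measured genes from BCL2, and at 0.99 it was the highest of them. The non-coding LINC01544 (0.80, 54.6 in R-HL60 and 31.1 in HL60, close to the floor) was the only other neighbour of BCL2 past 1.5-fold. Around BCL2A1 on chromosome 15 the neighbours went both ways: CTSH (0.84), ABHD17C (0.72) and IL16 (0.65) were past 1.5-fold higher, and MEX3B (-0.71) and RASGRF1 (-0.60) past 1.5-fold lower. Around BCL2L1 on chromosome 20, DEFB124 (0.74) was past 1.5-fold higher and MYLK2 (-0.74) past it lower. Around BCL2L2 on chromosome 14 DHRS2 (-0.82) alone was past 1.5-fold, and around MCL1 and BCL2L10 none was. DNA copy number was not measured.

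**Figure D5:**
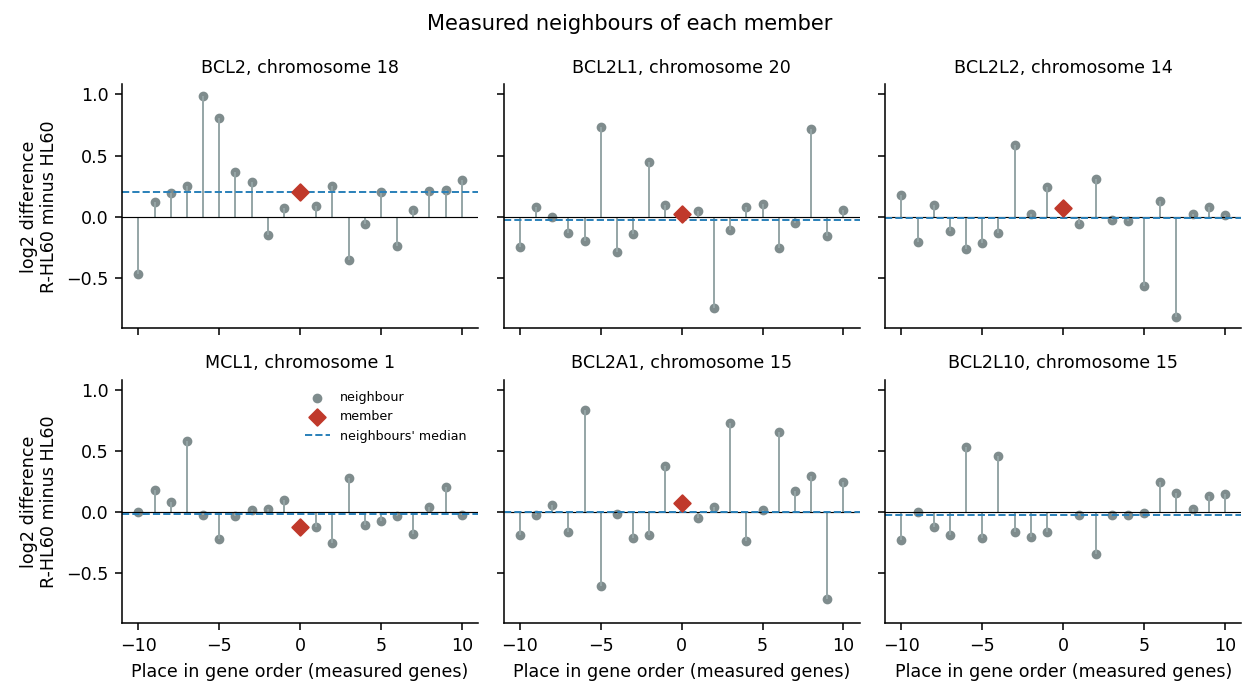
log2 difference, R-HL60 minus HL60, of the 10 measured genes on each side of every member (grey), in gene order, with the member itself as a red diamond and the neighbours' median as a dashed blue line. The BCL2 neighbours lie mostly above 0 with a median of 0.20, and the other medians are close to 0; BCL2L10 has no diamond because it was below the floor.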

How the data were processed

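Total RNA of 1 culture each of R-HL60 and HL60 was labelled with Cy3 after low-input amplification and read in 1 colour, per the labels' protocols. Agilent Feature Extraction 10.7.3.1 was used, per the submitters' processing notes. The deposited files of both arrays hold 1 linear intensity per probe with a gene name. No source used here states the background treatment, and the files hold no flags or probe identifiers. The authors' normalized intensity table lay within 0.515% of the mean of both sorted arrays at every rank.

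Rows of the 3 files were in the same order. Signals were scaled to each array's 75th percentile and taken to log2. The floor was the array median, and a gene was represented by its brightest probe. A gene above the floor on 1 array has a bound against the floor. Older symbols were updated through a RefSeq gene table (21081 of 43317 names current, 1567 older). Probe spread and like-bright genes were taken in 20 bins of brightness. Members, lists and the naming rule were chosen with earlier results of these data known. The naming rule took every member, the listed genes and neighbours past 1.5-fold; the naming of bright BCL2 neighbours within 1.5-fold followed a look at their values. Some genes that the rule names are not reported here. Alternatives were 4 other scalings, an offset of 50 units, 3 other floors, 2 other probe rules, a 1.5-fold threshold and 5 or 20 neighbours. Among the scalings, the authors' table repeated the values of quantile normalization for members, lists and neighbours, so these are not separate. The number of arrays limits the precision. Steps were tested on simulated data with planted changes past 2-fold, shared by all probes of a gene. Smaller changes, and changes on 1 probe alone, were not planted. Python 3.11.15, numpy 2.4.6, pandas 2.3.3, statsmodels 0.14.6 and matplotlib 3.10.9 were used.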

Additional observations from a re-analysis of the deposited data

How the results depend on the processing

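Of 250 values recomputed under other settings, 243 stayed within the probe-to-probe SD of 0.19 or, for counts and ranks, did not move, and 7 moved. Many of them could not move. Another floor leaves a measured member's own difference as it was, and another probe rule does so for members with 1 probe. The authors' table gave the same values as quantile normalization. That SD is also wider than many of the values, so a change of sign could count as unmoved. The count of members past 2-fold was 0 in all settings, including the 1.5-fold threshold, and the median of the members ran from 0.07 to 0.14. BCL2 ran from 0.20 to 0.27, BCL2L2 from 0.07 to 0.14, BCL2L1 from 0.01 to 0.05 and MCL1 from -0.12 to -0.06, without a change of sign. BCL2A1 was 0.43 with its probes averaged, over all probes or over those above the floor, and 0.78 by its dimmer probe alone, a setting added after seeing the data. BCL2L10, without a value otherwise, was at 0.20 with the floor at the 40th percentile or with no floor, and its signals there do not separate from background. Averaging probes moved 2 members in the order by signal in each line. The count of BH3-only genes past 2-fold upward ran from 1 to 3, against 2 in the report, and those of the transcription factors stayed at 2 upward and 1 downward; these settings were added after seeing the data. The neighbours' median ran from 0.11 to 0.27 for BCL2, while those of the other members changed sign between settings without leaving -0.11 to 0.08. With 1 array per line no replicate could be left out. No paired analysis was possible because each line has 1 array.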
